A study of Homo sapiens with 4 samples.

Results

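The genes of the epidermal differentiation complex form a block on chromosome 1 that encodes most of the proteins of the cornified envelope, the cross-linked shell of the outer skin cell. The members were the RefSeq protein-coding genes of chromosome 1 with symbols starting LCE or SPRR, together with FLG, FLG2, HRNR, RPTN, TCHH, TCHHL1, CRNN, IVL and LORICRIN. There were 39 of them among 19974 protein-coding genes on chromosomes 1 to 22 and X: 19 late cornified envelope (LCE) genes, 11 small proline-rich (SPRR) genes, 7 genes of the S100 fused type, and IVL and LORICRIN. They were examined in peak lists of chromatin immunoprecipitation and sequencing (ChIP-seq) from DU145 cells, a long-established line that came from a human prostate cancer. ATOH8 was precipitated by Flag and TCF3 by Myc, each in 1 library with 1 input library, and there were no replicates. Cells of all 4 libraries were fixed with 1% formaldehyde for 10 min. No source used here says how the tagged proteins were brought into the cells, and no other treatment is named.

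The LCE and SPRR proteins are small, rich in cysteine, glycine or proline, and are cross-linked by transglutaminases late in keratinocyte differentiation. Loricrin and involucrin are larger envelope proteins, and the S100 fused-type proteins, with filaggrin as the best known, join an S100-like calcium-binding part to long repeats that organise keratin filaments. Most of these genes have a short non-coding first exon and carry their coding sequence downstream of a single intron. The complex is a tissue-restricted locus of stratified epithelia, whereas DU145 is derived from prostate. TCF3 is a bHLH protein of the E protein class, which binds the E-box CANNTG as a dimer, and ATOH8 is a bHLH factor of the atonal group.

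A gene was given every peak with its midpoint inside it or within 5 kb of an end, in either list. The gene group was chosen by these same counts of genes with a TCF3 or ATOH8 peak, so they are a description with no test. TCF3 peaks were listed at 27 of the 39 genes (69.2%), where 32.9% of all protein-coding genes had one. ATOH8 peaks were listed at 2 of 39 (5.13%), where 25.1% of all had one. Peaks of both lists lay at LORICRIN alone among the members, against 11.8% of all protein-coding genes. Members were short, with a median length of 1698 bp against 24170.5 bp for all protein-coding genes, so less sequence was searched per member. Per Mb, ATOH8 midpoints numbered 1.70 in the span of the members and 1.64 over chromosomes 1 to 22 and X. The part played by gene length was not tested. There were 39 distinct TCF3 peaks and 2 distinct ATOH8 peaks, and no peak was counted at 2 members. TCF3 was listed at 17 of 19 LCE genes, 8 of 11 SPRR genes, LORICRIN, and 1 of the 7 S100 fused-type genes.

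**Figure D1:**
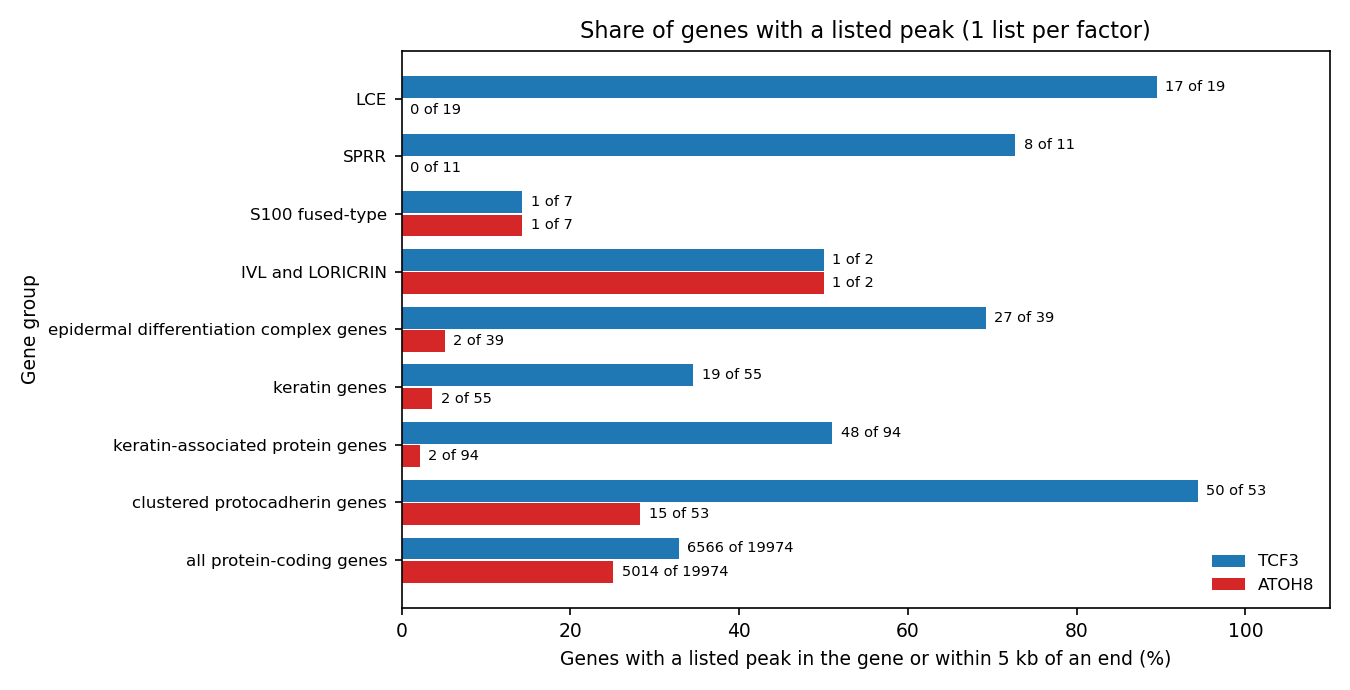
Percentage of genes with a listed peak in the gene or within 5 kb of an end (x axis) by gene group (y axis), for TCF3 (blue) and ATOH8 (red), with the counts beside each bar and 1 list per factor. TCF3 bars reach 89.5% for LCE and 72.7% for SPRR genes, and ATOH8 has no bar in either.

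The score of a peak is the authors' own value, and it was used only to rank peaks within a list. Sequencing depth was not known, and the absence of a listed peak was therefore not read as absence of binding. The lists were held in part: beside lines without a peak, TCF3 scores stepped from 887 to 280, from 129 to 120 and from 41 to 38, and ATOH8 scores from 996 to 356, from 326 to 280 and from 83 to 81. Peaks with scores between were not analysed here, so the counts of either list at the members may be low. The scores of the TCF3 peaks at members ran from 36 to 250 with a median of 74, and the median of the whole TCF3 list was 61. Of the 39 peaks, 23 (59.0%) were above the list's median, as were 47.8% of all TCF3 peaks, and 9 (23.1%) scored above at least 90% of the list, as did 9.68% of all.

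**Figure D2:**
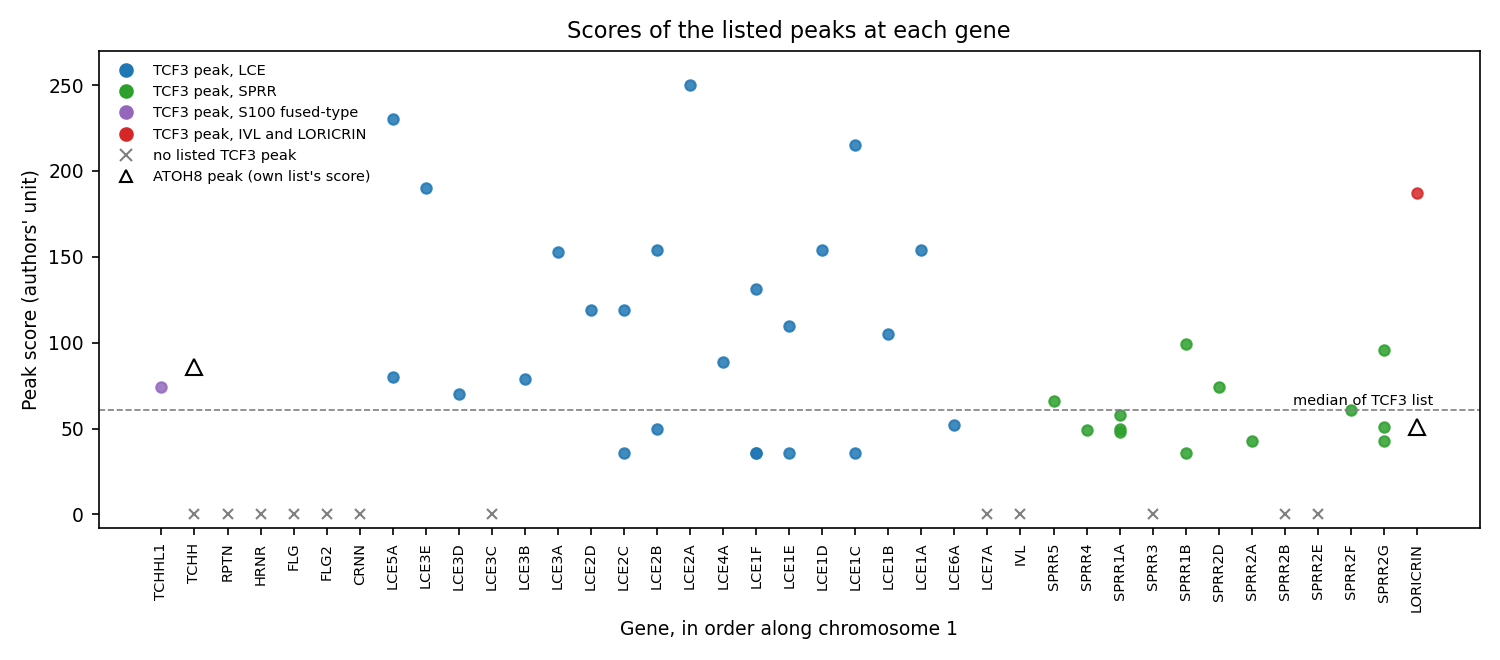
Score of each listed TCF3 peak (filled points, coloured by gene class) and ATOH8 peak (open triangles) at each of the 39 genes in chromosomal order; crosses mark genes with no listed TCF3 peak, and the 2 lists' scores are not on a common scale. LCE genes and LORICRIN hold all points above 99.

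The promoters of the LCE genes are shown first, since in this class a TCF3 peak often lay over the annotated transcription start. RefSeq promoter windows on GRCh38.p14, which shares its chromosome coordinates with hg38, were matched for 36 of the 39 genes, all but LCE1B, SPRR2D and SPRR2E. A TCF3 peak covered the start of 12 of these 36 genes, namely LCE3B, LCE3A, all 4 LCE2 genes, LCE4A, LCE1F, LCE1E, LCE1C, LCE1A and SPRR1A. Among 15813 protein-coding genes with a promoter window, 10.6% had a TCF3 peak over the start. The RefSeq entries of LCE3B and LCE3A were only 288 and 270 bp long, against 853 to 1136 bp for the other LCE3 genes. The entry of LCE1A was likewise 625 bp long, against 1138 to 2170 bp for the other LCE1 genes. The annotated starts of LCE3B, LCE3A and LCE1A may therefore not be transcription starts, which was not checked. The 250 bases before the start of the LCE2 genes are given 5′ to 3′ with each CANNTG E-box in capitals, for LCE2D (chr1:152663130-152663379, plus strand), LCE2C (chr1:152675029-152675278, plus strand), LCE2B (chr1:152685873-152686122, plus strand) and LCE2A (chr1:152698095-152698344, plus strand).
LCE2D: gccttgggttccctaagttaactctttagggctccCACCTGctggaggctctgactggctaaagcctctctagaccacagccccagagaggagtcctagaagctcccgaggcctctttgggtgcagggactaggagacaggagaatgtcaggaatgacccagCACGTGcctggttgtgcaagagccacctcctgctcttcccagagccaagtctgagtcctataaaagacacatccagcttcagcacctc
LCE2C: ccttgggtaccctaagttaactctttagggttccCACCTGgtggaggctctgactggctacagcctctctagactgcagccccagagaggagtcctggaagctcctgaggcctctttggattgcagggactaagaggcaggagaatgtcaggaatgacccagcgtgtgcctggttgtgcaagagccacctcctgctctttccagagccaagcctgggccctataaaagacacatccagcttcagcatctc
LCE2B: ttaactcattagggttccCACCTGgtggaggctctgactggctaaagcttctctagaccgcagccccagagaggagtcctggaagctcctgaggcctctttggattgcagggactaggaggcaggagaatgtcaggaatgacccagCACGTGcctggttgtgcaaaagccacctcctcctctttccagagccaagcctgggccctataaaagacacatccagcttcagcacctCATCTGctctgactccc
LCE2A: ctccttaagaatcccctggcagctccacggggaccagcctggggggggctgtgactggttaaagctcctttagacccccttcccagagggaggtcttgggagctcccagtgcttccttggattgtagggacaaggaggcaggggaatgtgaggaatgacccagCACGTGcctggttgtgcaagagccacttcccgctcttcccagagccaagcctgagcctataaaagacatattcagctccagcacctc
LCE2D and LCE2C were identical at 92.0% of aligned positions in this window, and the other LCE2 pairs at 71.9 to 84.2%. The E-box CACGTG occurred in the windows of LCE2D, LCE2B and LCE2A and in none of LCE2C. Reads from copies this alike may not be told apart, and no source used here says how the authors placed such reads.

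All 4 LCE2 genes had TCF3 peaks, but the peaks differed in shape. LCE2A (152698345 to 152699442) was covered whole by a single peak from 152697869 to 152699802, and its score of 250 was the highest at any member and above 98.8% of the TCF3 list. LCE2D (152663380 to 152664659) was also covered whole, from 152663157 to 152664721, with a score of 119. LCE2C and LCE2B each had 2 separate peaks. LCE2C (152675279 to 152676569) had a peak with score 36 centred 58.5 bp before its start and another with score 119 centred 945.5 bp after it. LCE2B (152686123 to 152687397) had scores of 50 at 134 bp before the start and 154 at 1143 bp after it. In both genes the peak over the start had the lower score.

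The same arrangement was seen at 3 LCE1 genes. Their 250 bases before the start are shown for LCE1F (chr1:152774890-152775139, plus strand), LCE1E (chr1:152786007-152786256, plus strand) and LCE1C (chr1:152806652-152806901, minus strand), again with E-boxes in capitals.
LCE1F: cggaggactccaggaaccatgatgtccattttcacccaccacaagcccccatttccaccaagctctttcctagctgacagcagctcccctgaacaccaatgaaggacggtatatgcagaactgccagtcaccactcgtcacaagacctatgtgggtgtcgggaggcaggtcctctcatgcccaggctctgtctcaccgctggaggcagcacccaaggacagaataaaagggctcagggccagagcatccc
LCE1E: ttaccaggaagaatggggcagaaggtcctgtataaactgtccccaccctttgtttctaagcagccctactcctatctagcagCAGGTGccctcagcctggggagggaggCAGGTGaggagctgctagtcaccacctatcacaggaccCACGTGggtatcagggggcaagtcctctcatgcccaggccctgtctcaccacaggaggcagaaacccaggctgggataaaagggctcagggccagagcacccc
LCE1C: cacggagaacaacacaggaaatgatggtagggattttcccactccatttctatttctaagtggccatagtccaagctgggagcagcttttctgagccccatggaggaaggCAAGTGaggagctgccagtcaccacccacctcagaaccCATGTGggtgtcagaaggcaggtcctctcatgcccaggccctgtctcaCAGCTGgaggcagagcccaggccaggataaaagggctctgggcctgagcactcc
LCE1E and LCE1C were identical at 73.7% of aligned positions, LCE1F and LCE1C at 72.3%, and LCE1F and LCE1E at 68%. The windows of LCE1E and LCE1C held 3 E-boxes each and that of LCE1F held none, while all 3 starts were covered by a TCF3 peak.

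Each of these 3 start peaks had a score of 36, close to the lowest score of the TCF3 list (35) and shared by 1529 TCF3 peaks (13.5%). The downstream peaks scored higher. LCE1C (152804832 to 152806651) had a score of 215 centred 1591 bp after the start, above 97.4% of the list. LCE1F (152775140 to 152777024) had 131 at 1365.5 bp, and a further peak with score 36 beyond its end. LCE1E (152786257 to 152788426) had 110 at 1375 bp. In these 5 LCE genes with a start peak and a separate downstream peak, the downstream peak had the higher score, with 36 to 50 at the start and 110 to 215 downstream.

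The other LCE1 genes each had 1 peak. LCE1D (152796721 to 152798181) had a score of 154, centred 1278.5 bp after the start, and LCE1B (152811971 to 152813108) had 105 inside the gene. LCE1A (152827473 to 152828097) was covered whole by a peak with score 154. Thus all 6 LCE1 genes had a TCF3 peak, with highest scores per gene of 105 to 215.

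In the LCE3 class, whose genes are induced in psoriatic and wounded skin, 4 of 5 genes had a peak. LCE3E (152565654 to 152566780) scored 190 and LCE3A (152622834 to 152623103) 153, while LCE3B had 79 and LCE3D 70. LCE3C had none, the nearest TCF3 midpoint being 12886.5 bp outside the gene. LCE4A was covered whole by a peak with score 89, LCE6A had 52, and LCE7A had none within 16145.5 bp. LCE5A (152510803 to 152512177) had a score of 80 inside the gene and 230 at 3449 bp beyond its end, and the latter peak lay in its neighbour CRCT1, a cysteine-rich gene of the complex. By class, the LCE peaks had a median score of 107.5 over 24 peaks.

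**Figure D3:**
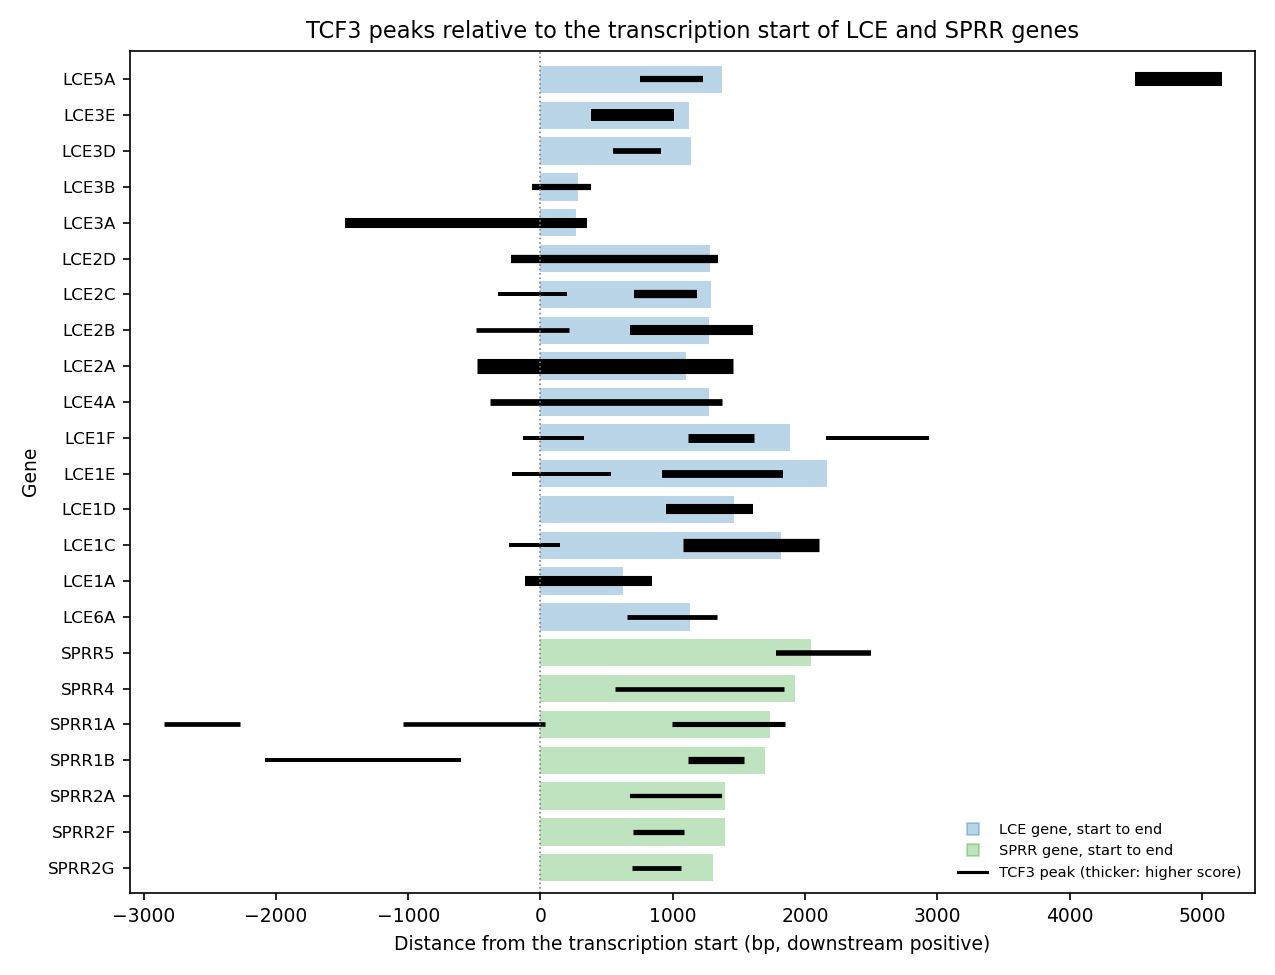
TCF3 peaks (black, thicker for higher scores) at the LCE and SPRR genes with a peak and a promoter entry (y axis), in bp from the transcription start (x axis), with the gene from start to end as a coloured bar; 2 peaks more than 50 kb upstream of the SPRR2G start are not drawn. The highest-scoring peak of most genes lies downstream of the start, and LCE2C, LCE2B, LCE1F, LCE1E and LCE1C also carry a thin peak over it.

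SPRR genes, the second class by number of peaks, encode proline-rich cross-linking proteins and had lower scores. Their 13 TCF3 peaks had scores of 36 to 99 and a median of 51, and 4 of the 13 were above the median of the TCF3 list. SPRR1B (153031203 to 153032900) had the highest, 99, centred 1325 bp after its start, and another peak with score 36 centred 1341.5 bp before it. SPRR1A (152984081 to 152985814) had scores of 58 at 1420 bp after the start, 48 for a peak centred 500.5 bp before it that reached over the start, and 50 at 2556.5 bp before it. Of the SPRR genes with a promoter window, SPRR1A alone had a peak over its start. The windows of SPRR1A (chr1:152983831-152984080, plus strand) and SPRR1B (chr1:153030953-153031202, plus strand) are shown because they held the most E-boxes of the 36 windows searched, 5 and 7, although only the former was covered.
SPRR1A: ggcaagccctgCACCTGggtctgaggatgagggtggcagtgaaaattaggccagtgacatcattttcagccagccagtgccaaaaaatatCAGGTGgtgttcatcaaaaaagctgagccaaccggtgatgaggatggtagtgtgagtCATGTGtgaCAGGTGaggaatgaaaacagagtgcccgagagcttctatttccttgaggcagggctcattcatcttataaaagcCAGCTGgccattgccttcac
SPRR1B: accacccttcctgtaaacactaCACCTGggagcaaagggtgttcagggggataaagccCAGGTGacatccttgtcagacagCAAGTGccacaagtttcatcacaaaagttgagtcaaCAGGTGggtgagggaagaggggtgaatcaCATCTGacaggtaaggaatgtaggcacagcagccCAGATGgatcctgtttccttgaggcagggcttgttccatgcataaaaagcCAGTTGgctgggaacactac
These 2 windows were identical at 65.0% of aligned positions.

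Among the 6 SPRR2 genes, 4 had a peak. SPRR2D (153039732 to 153041120) had 74, SPRR2F 61 and SPRR2A 43, all inside the gene. SPRR2G had 51 at 877 bp after its start. Its RefSeq gene reaches from 153149582 to 153203278, so it was also given peaks with scores of 43 and 96 that lay far upstream of that start, near the upper end of the annotated gene, the latter inside LELP1. SPRR2B and SPRR2E had no listed peak, with the nearest TCF3 midpoints 13737.5 and 18098 bp away. SPRR5 had 66 across its end, SPRR4 had 49, and SPRR3 had none.

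LORICRIN (153259687 to 153262124), which encodes the most abundant protein of the envelope, was the only member at which the lists met. Its TCF3 peak ran from 153260836 to 153261999 with a score of 187, above 95.8% of the TCF3 list. An ATOH8 peak from 153261552 to 153261873 lay wholly within it, with a score of 51, the lowest of the ATOH8 list. Thus 1 of the 39 member TCF3 peaks (2.56%) overlapped ATOH8 by at least 1 bp, as did 1417 of all 11330 TCF3 peaks (12.5%). IVL (152908546 to 152911886), the involucrin gene, had no peak of either list, and the nearest TCF3 midpoint was 37462.5 bp outside it.

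The S100 fused-type genes had few peaks. FLG (152302165 to 152325239), the filaggrin gene, and FLG2, HRNR, RPTN and CRNN had none of either list. The TCF3 midpoint nearest to FLG was 105706 bp from the gene, and that nearest to FLG2 was 151786 bp away. TCHHL1 (152084141 to 152089064) was counted for a peak with score 74 centred 4107 bp beyond its end, over the pseudogene LOC100131107. TCHH (152106317 to 152115444), which encodes trichohyalin of the hair follicle, had no TCF3 peak and held an ATOH8 peak from 152110246 to 152112298 with a score of 86, above 50.7% of the ATOH8 list. No TCF3 midpoint lay in a stretch of 315.3 kb that holds HRNR, FLG, FLG2 and CRNN.

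**Figure D4:**
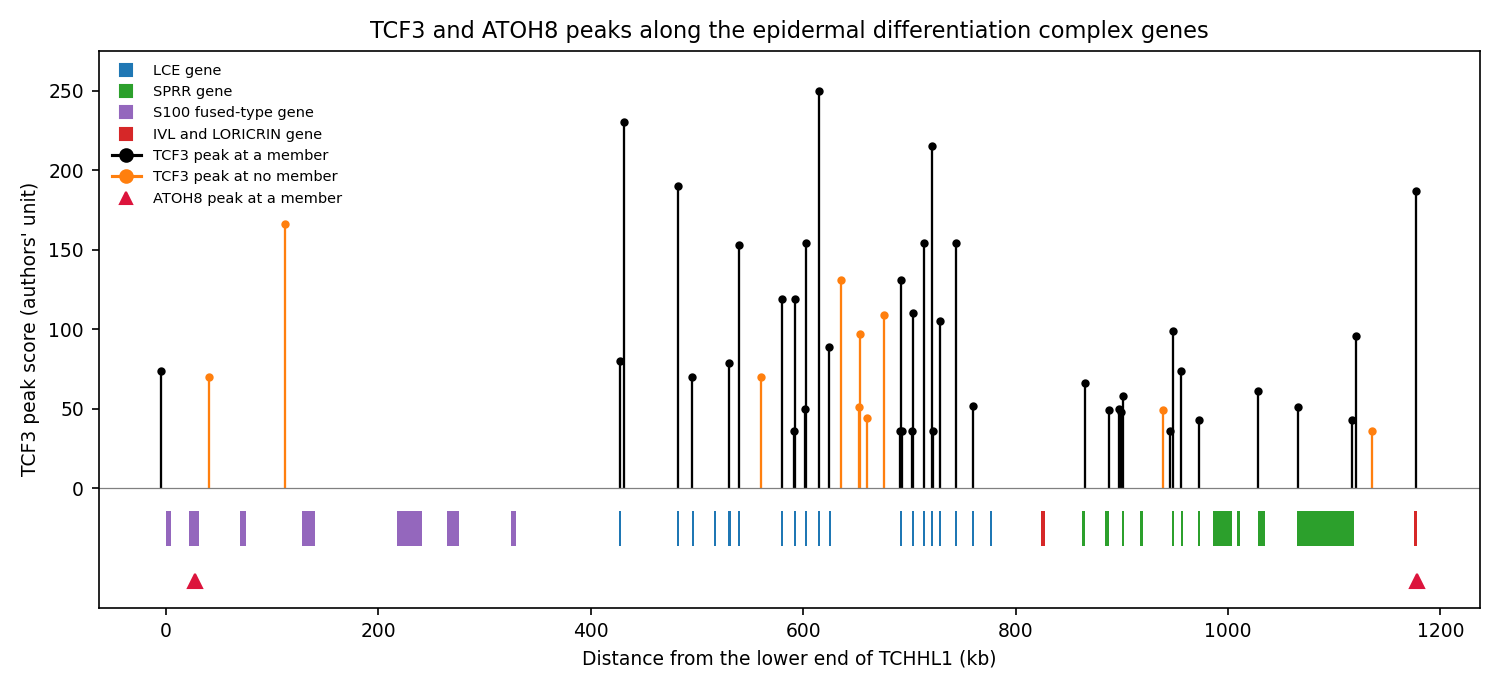
TCF3 peaks (vertical lines, height is the score) along the locus in kb from the lower end of TCHHL1, with the genes as coloured bars below and ATOH8 peaks as red triangles. Peaks are dense from LCE5A to LCE6A, with up to 250 in score, and there are none between HRNR and CRNN.

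Peak density followed these classes. From the lower end of TCHHL1 to the upper end of LORICRIN, 1.18 Mb, there were 48 TCF3 midpoints, or 40.7 per Mb, against 3.22 per Mb on chromosome 1 and 3.75 per Mb over chromosomes 1 to 22 and X. The LCE stretch held 30 in 350.5 kb (85.6 per Mb), with a median spacing of 9.82 kb. The SPRR stretch had 13 in 256.1 kb (50.8 per Mb) and the S100 fused-type stretch 2 in 330.1 kb (6.06 per Mb). ATOH8 had 2 midpoints in the whole span, 1.70 per Mb, against 1.82 per Mb on chromosome 1. The density of TCF3 peaks went on above the block, with 9 in the next 200 kb, and was lower below it, with 3 in 200 kb. Neighbouring genes and peaks are not independent, so no test was made of these densities.

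Within the genes, TCF3 midpoints lay toward the downstream end. Of 27 members up to 3 kb long, 21 had a TCF3 midpoint inside the gene, and 20.1% of all protein-coding genes of that length had one. Where the strand was known, 16 of 21 such midpoints in members (76.2%) were in the downstream 50% of the gene. In other protein-coding genes up to 3 kb the count was 65 of 282 (23%), and in keratin-associated protein genes, another family of small clustered genes, it was 8 of 35 (22.9%). Midpoints in members were a median of 71.0% of the way from start to end, and those in the other short genes 29%. Of these peaks with a midpoint inside the gene, 7 of the 21 (33.3%) and 140 of the 282 (49.6%) lay over the start. Start peaks centred upstream of the gene are left out of these counts, as at LCE3A, LCE2C, LCE2B, LCE1C and SPRR1A. The peaks of LCE3B and LCE1A, with midpoints 56.3% and 58.2% along, covered the whole gene. Their midpoints are counted in the downstream 50%, though the peaks also lay over the start. The annotation used gave no exons, so overlap with coding sequence was not measured.

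The promoter windows of the members were compared with all others by short words searched on both strands. The E-box CANNTG was in 31 of 36 member windows (86.1%) and in 57.8% of all protein-coding windows. CAGNTG, a subset of those words that E proteins favour, was in 24 of 36 (66.7%) and 39.8% of all. Among the 12 windows with a TCF3 peak over the start, 10 held the former word and 9 the latter. The TATA-box word TATAAA was in 23 of 36 (63.9%) against 9.25% of all, and in 20 of the members it began 29 to 33 bases before the start. The word TGANTCA was in 14 of 36 (38.9%) against 5.05%. It is wider than the AP-1 site TGA(C/G)TCA, since it also takes A or T as the middle base. In the S100 fused-type windows with a match, and in that of SPRR2G, the middle base was always A or T, so those were not AP-1 sites. By class, TGANTCA was in 0 of 18 LCE windows and in 14 of the 18 others, while the E-box was in 16 and 15. Of the 12 windows with a covered start, 11 of which were of LCE genes, 7 held the TATA-box word and 1 the word TGANTCA. Base composition differed too, with a median GC content of 50.6% in members and 62.4% in all. A match says only that these letters are present.

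The peaks that came closest to the 5 kb limit on the inner side were those of LCE5A and TCHHL1, at 3449 and 4107 bp. On the outer side, peaks counted at a neighbour were left aside. The closest were then a peak of score 49 at 7903 bp from SPRR1B and a peak of score 70 at 9346 bp from TCHH. LCE5A and SPRR1B also had a TCF3 peak inside the gene, so their being counted did not turn on the limit.

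Other clustered families gave counts to set beside these. TCF3 peaks lay at 19 of 55 keratin genes (34.5%), 48 of 94 keratin-associated protein genes (51.1%) and 50 of 53 clustered protocadherin genes (94.3%). Of all protein-coding genes, 32.9% had one. In the same order, ATOH8 peaks lay at 2 (3.64%), 2 (2.13%) and 15 (28.3%) genes of these families, against 25.1% of all protein-coding genes. The 15 protocadherin genes shared 3 distinct ATOH8 peaks, and the 50 had 65 distinct TCF3 peaks. Median gene length was 110198 bp for protocadherin genes and 1698 bp for the members, so the gene counts are not alike. The median score of the distinct TCF3 peaks was 44 for keratin genes, 52 for keratin-associated protein genes and 79 for protocadherin genes. These differences were not tested.

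The remaining protein-coding genes of the complex had a TCF3 peak at 15 of 24 (62.5%) and an ATOH8 peak at 8 of 24 (33.3%). Of all protein-coding genes, 32.9% and 25.1% had one. Those outside the S100A family, such as CRCT1 (highest TCF3 score 230), KPLCE (131), KPRP (109) and LELP1 (96), had TCF3 peaks in 7 of 8 cases and no ATOH8 peak. They also include PGLYRP4 (46) and PGLYRP3 (44), which encode peptidoglycan recognition proteins, and SMCP, a sperm protein gene and the only 1 of the 8 without a listed peak. The S100A genes, which encode calcium-binding proteins, had TCF3 peaks in 8 of 16 cases, with S100A10 (256), S100A7 (75), S100A7A and S100A8 (both 70) highest. They also had ATOH8 peaks in 8 of 16, with S100A1 and S100A13 (both 179), S100A10 (125) and S100A14 and S100A16 (both 111) highest. Some of these genes shared peaks, since the S100A genes had 7 distinct TCF3 peaks and 6 distinct ATOH8 peaks. ATOH8 was thus listed at the S100A genes and at none of the LCE and SPRR genes, a difference that was not tested.

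Keratinocyte genes elsewhere in the genome had TCF3 peaks in 5 of 28 cases (17.9%, against 32.9% of all protein-coding genes). These were DSP (109), ALOX12B (70), KRT1 (61), and KRT10 and ALOXE3 (both 36). ATOH8 peaks lay at 4 of 28 (14.3%, against 25.1% of all). ALOXE3 (258), a lipoxygenase of the skin barrier, and DSP (180), the desmoplakin gene, were highest, followed by ASPRV1 (72) and DMKN (54). Regulators of epidermal differentiation carried TCF3 peaks in 16 of 26 cases (61.5%, against 32.9% of all protein-coding genes). GRHL1 (190), MAF (166) and FOSL2 (143) were among the highest. ATOH8 peaks lay at 10 of 26 regulators (38.5%, against 25.1% of all), with KLF4 (1021), FOSL2 (168), FOSL1 (148) and JUNB (141) highest. Of 7 prostate luminal marker genes, 2 had a TCF3 peak, among them KRT8 (36), and KRT8 (108) had an ATOH8 peak. Of 5 basal markers, TRIM29 (52) had a TCF3 peak and ITGA6 (125) an ATOH8 peak. Peak lists hold no expression, so the cell type was not checked by its markers.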

How the data were processed

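ChIP-seq peak lists of ATOH8 (4997 peaks, 4951 on chromosomes 1 to 22 and X) and TCF3 (11390 and 11330) were analysed, 1 list and 1 library per factor, matched by name. The authors' deposited score per peak has no stated definition. Coordinates are hg38, per the submitters' processing notes, and printed as listed, with no stated counting base. No source used here gives the aligner, peak caller, threshold or use of the input. Input libraries were not analysed here. Sequencing depth was unknown, so no counting intervals are given. Lines without a peak (3 and 5) were skipped.

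Gene positions (all 39 symbols found) and 250 bases before the start (36 of 39) came from RefSeq, GRCh38.p14. E-box and other word searches ignored overlap between words. Promoter pairs were aligned globally (match 1, mismatch -1, gap opening -3, extension -1). Identity is over all aligned columns. Peak assignment was tested on simulated data with 200 planted peaks. The members and lists were chosen with earlier results of these data known. All members were named, and in other lists the 4 highest-scoring genes per factor, with all genes at tied scores. Some items that this rule covers are left out here. The S100A genes were split from the other genes of the complex, and the words TATAAA and TGANTCA, the split of genes at 3 kb and the pseudogenes were added, after values were seen. Python 3.11.15, numpy 2.4.6, pandas 2.3.3, Biopython 1.88 and matplotlib 3.10.9 were used.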

Additional observations from a re-analysis of the deposited data

How the results depend on the processing

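Alternatives were gene bodies alone or with 1 kb or 50 kb on each side, gene ends only, any shared base, the higher-ranked 50% of peaks, leaving out the top 1% of scores, and as many TCF3 as ATOH8 peaks. The number of members with a TCF3 peak ran from 21 to 36 of 39 over these, against 27 by the rule used above. The share of all protein-coding genes with one ran from 16.7% to 53.7%. With gene bodies and 50 kb on each side, 36 members (92.3%) and 53.7% of all protein-coding genes had a TCF3 peak. ATOH8 was then listed at 4 members (10.3%) and at 43.6% of all protein-coding genes. With the higher-ranked 50% of peaks there were 23 distinct TCF3 peaks with a median score of 119, 23.8 TCF3 peaks per Mb, and 1 ATOH8 peak at 1 member. In that setting 56.4% of members and 19.0% of all protein-coding genes had a TCF3 peak, and 2.56% and 13.6% an ATOH8 peak. With equal numbers of peaks there were 22 distinct TCF3 peaks at 21 members (53.8%), against 16.7% of all protein-coding genes. The median score of these peaks was also 119. The lowest TCF3 scores kept were 61 in the former setting and 70 in the latter, so a higher median follows from the cut. The lower counts in both settings come from fewer peaks in the lists. A reciprocal overlap of 50%, or midpoints within 200 bp, left 0 shared peaks, the ATOH8 peak at LORICRIN being 321 bp wide and the TCF3 peak around it 1163 bp. No paired analysis was possible because each factor had 1 library and no test was made.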

Other observations

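Sequences related to the LCE genes that are annotated as pseudogenes also carried TCF3 peaks. LCEP2 (chromosome 1, 152737518 to 152737868) was overlapped by a peak with score 97, LCEP4 (152644393 to 152644717) by one with 70, and LCEP1 (152744299 to 152744606) by one with 44. LCEP3, the shortest at 180 bp, had no TCF3 midpoint within 5 kb, and neither had SPRR2C, a transcribed pseudogene of the SPRR2 class. Of the 48 TCF3 peaks with a midpoint between the lower end of TCHHL1 and the upper end of LORICRIN, 10 were at no member. Besides the 3 at LCE pseudogenes, these included peaks at KPLCE (131) and KPRP (109), and a peak with score 166 from 152195881 to 152197038 inside the long non-coding RNA gene CCDST, which was above 93.8% of the TCF3 list.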
